A study of Mus musculus with 22 samples.

Results

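The homeostatic microglia genes described here are 9 protein-coding genes, P2ry12, P2ry13, Gpr34, Cx3cr1, Csf1r, Tmem119, Fcrls, Olfml3 and Sall1, chosen by name from the 56691 genes of the deposited tables, and all 9 were present and passed the filter on low counts in every comparison. The samples were CD11b+ cells enriched on magnetic beads from whole brains of CF-1 mouse pups, sequenced as stranded total RNA after removal of ribosomal RNA. There were 20 animals in 5 groups of 4: early controls, HIE at postnatal day (P) 7, and controls, HIE and hypoxia at P14. Each group held 2 litters of 2 animals, read from the shared start of the animals' names, and every litter belonged to 1 group. HIE stands for the hypoxic-ischemic encephalopathy model of the study, in which the dam received lipopolysaccharide late in gestation and the pups a short hypoxia on P6. Controls were the saline and normoxia arm, and the hypoxia group was labelled only as hypoxia, so that its prenatal treatment is not given in the sources used here. The early controls carried 1 label each of P8, P9, P10 and P11, while the protocol text places the early collection at P7, and the HIE animals at P7 were all male whereas the other groups held both sexes. The early libraries and the P14 libraries came in separate deposited files, named as batches, so that age and batch cannot be told apart. What the batches stand for is not given in the sources used here.

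Microglia, the resident macrophages of the brain, sense their surroundings through a set of surface receptors that are present at high levels in the undisturbed tissue, and the loss of these transcripts is a widely used sign that microglia have left the homeostatic state. P2RY12 and P2RY13 are receptors for ADP released by damaged or active cells, GPR34 is a lysophosphatidylserine receptor, CX3CR1 binds the neuronal chemokine fractalkine, and CSF1R binds CSF1 and IL-34, on which microglial survival depends. TMEM119 is a membrane protein used as a marker of mature microglia, FCRLS is an Fc receptor-like protein, OLFML3 is a secreted olfactomedin-like glycoprotein, and SALL1 is the transcription factor that maintains microglial identity.

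The 4 genes P2ry13, P2ry12, Fcrls and Olfml3 lie on chromosome 3, the first pair as neighbours, and their promoters are shown. Across the 20 animals P2ry12 followed Gpr34, on chromosome X, as closely as its neighbour P2ry13 (Pearson correlations of log2 levels 0.992 and 0.988). Of the 9 genes, 6 had an entry in the RefSeq promoter table used, and each sequence was found once in GRCm39. The 250 bases before the RefSeq start are given 5′ to 3′ on the coding strand, which is the minus strand for all 4, with capitals marking GAGGAA, a core bound by PU.1, the myeloid lineage factor, and GGAAGT, a core of the wider ETS family, on either strand. Both motifs hold the letters GGAA and can overlap. The windows are chr3:59118304-59118553 for P2ry13, chr3:59170407-59170656 for P2ry12, chr3:87170832-87171081 for Fcrls and chr3:103645318-103645567 for Olfml3.
P2ry13: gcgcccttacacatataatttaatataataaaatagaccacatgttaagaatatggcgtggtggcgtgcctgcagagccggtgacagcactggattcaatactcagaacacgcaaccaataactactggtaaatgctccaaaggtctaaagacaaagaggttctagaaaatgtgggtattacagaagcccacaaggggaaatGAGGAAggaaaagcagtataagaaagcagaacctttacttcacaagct
P2ry12: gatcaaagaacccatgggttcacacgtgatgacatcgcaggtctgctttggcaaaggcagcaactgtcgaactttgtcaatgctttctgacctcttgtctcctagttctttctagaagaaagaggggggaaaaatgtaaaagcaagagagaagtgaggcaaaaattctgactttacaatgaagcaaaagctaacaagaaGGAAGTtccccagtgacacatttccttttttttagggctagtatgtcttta
Fcrls: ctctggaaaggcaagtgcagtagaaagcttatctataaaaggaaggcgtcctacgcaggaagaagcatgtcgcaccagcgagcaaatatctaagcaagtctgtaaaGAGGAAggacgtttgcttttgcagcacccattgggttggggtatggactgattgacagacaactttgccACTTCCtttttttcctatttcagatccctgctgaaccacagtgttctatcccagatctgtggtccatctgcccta
Olfml3: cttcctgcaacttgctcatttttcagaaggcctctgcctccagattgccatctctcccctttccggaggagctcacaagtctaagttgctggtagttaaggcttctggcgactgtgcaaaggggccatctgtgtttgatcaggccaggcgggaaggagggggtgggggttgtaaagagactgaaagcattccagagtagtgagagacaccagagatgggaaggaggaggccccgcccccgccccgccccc
P2ry13 held GAGGAA 48 bases before its start and P2ry12 held GGAAGT 51 bases before its start. Fcrls held GAGGAA 144 bases before the RefSeq start and GGAAGT on the opposite strand (ACTTCC) 75 bases before it, and that RefSeq start lies 10996 bases inside the longer gene of the GENCODE annotation. The Olfml3 window held neither, and neither did that of Cx3cr1, while 1 of the 3 Sall1 windows held GGAAGT. Among the 32851 windows of the whole table, 23.3% held GAGGAA and 19.7% held GGAAGT, so these matches describe the letters only. Tmem119, Gpr34 and Csf1r are named only.

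In GRCm39 the genes lie at chr3:59123682-59170429 (P2ry12), chr3:59114539-59118304 (P2ry13), chrX:13489625-13507116 (Gpr34), chr9:119877749-119898945 (Cx3cr1), chr18:61229714-61266535 (Csf1r), chr5:113931781-113938577 (Tmem119), chr3:87156616-87181827 (Fcrls), chr3:103629538-103645322 (Olfml3) and chr8:89753863-89770823 (Sall1). Exons of P2ry12, Cx3cr1, Csf1r and Sall1 overlap those of a gene on the opposite strand (Med12l, Gm33858, Hmgxb3 and Gm3134). The library kit kept strand, but the strand setting of the counting is not given in the sources used here, so the values of these 4 genes could include reads of the partner.

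Total counts ran from 70191541 to 83469037 in the early animals and from 29751486 to 76166750 at P14, where 3 counts correspond to at most 0.101 CPM, far below every value of the 9 genes. CPM here is a gene's count per 1000000 counts of its library, after TMM scaling over the 20 animals. One litter of early controls, P6H63, stood apart from all other animals, with scaling factors of 1.253 and 1.194 against 0.889 to 1.05, and with astrocyte and endothelial marker sums above those of the other early control litter, P6H55. The 8 astrocyte markers summed to 4137 and 5131 CPM in P6H63 and to 1443 and 2046 CPM in P6H55, and the 8 endothelial and mural markers to 3162 and 2585 against 1341 and 1329 CPM, and no marker of any list was at or under 3 counts in all animals of a group. The edgeR fits of the 9 genes that rest on these animals are therefore given with and without P6H63, while counts of genes without overlap between groups include all animals. A second scale, the relative level, divides the CPM of a gene by the geometric mean of 15 pan-myeloid genes (such as Itgam, Ptprc and Tyrobp) in the same animal.

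The 9 genes spanned a wide range of levels. Per kilobase of exon, P2ry12 had the highest mean level in HIE at P14, at 1361 ± 285 CPM per kb (SD, n = 4), followed by Csf1r at 960 ± 169 and Cx3cr1 at 924 ± 177, and these 3 neighbours overlapped between animals. Tmem119 at 506, Gpr34 at 334, P2ry13 at 325 and Fcrls at 255 CPM per kb came next, Cx3cr1 lying above Tmem119 without overlap. Sall1 at 100.2 and Olfml3 at 75.9 CPM per kb were lowest. In HIE at P7 the order began with Cx3cr1 (797 CPM per kb), P2ry12 (709) and Csf1r (700), and Tmem119 (153) ranked 7 of 9 there and 4 of 9 in HIE at P14.

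Ordered by mean CPM over the 5 groups, HIE at P14 came first for 7 of the 9 genes and the early controls last for all 9. P2ry12 had 4362 ± 913 CPM (SD, n = 4) in HIE at P14, 4270 ± 1077 in hypoxia, 3714 ± 533 in P14 controls, 2274 ± 312 in HIE at P7 and 1040 ± 992 in early controls. The 3 P14 groups overlapped for P2ry12, and both early groups lay below them without overlap. For Cx3cr1 all neighbouring groups overlapped, with HIE at P7 (3712 ± 184 CPM) between hypoxia (3805 ± 744) and P14 controls (3420 ± 374). Fcrls and Sall1 were the 2 genes with their highest mean in HIE at P7, at 1172 ± 150 and 926.6 ± 98.4 CPM, and for Sall1 that group did not overlap with HIE at P14, the next lower. Olfml3 was highest in both HIE groups (468 ± 70.3 CPM at P14 and 443 ± 107 at P7), with means of 228 CPM in P14 controls and 227 CPM in hypoxia.

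The first pattern in the CPM was the gap between both litters of early controls. P2ry12 stood at 226 and 139 CPM in the P6H63 animals and at 1951 and 1845 CPM in the P6H55 animals, whereas the HIE animals at P7 had 2393, 2660, 2035 and 2007 CPM. The P6H55 controls therefore lay just under the HIE range, and the P6H63 controls were about an order of magnitude lower. In bulk samples, fewer cells of a type and less RNA per cell cannot be told apart. The ratio of the litter means, P6H55 over P6H63, was 10.4 for P2ry12, 9.37 for P2ry13, 8.65 for Gpr34, 8.27 for Cx3cr1, 8.16 for Csf1r, 7.05 for Tmem119, 5.85 for Sall1, 4.32 for Olfml3 and 4.29 for Fcrls. The ratios were thus highest for the ADP receptors and lowest for Fcrls and Olfml3. The median ratio was 8.16 over the 9 genes and 7.24 over the 15 pan-myeloid genes (4.40 to 9.98), so the general myeloid genes were also lower in P6H63, over a range that overlaps that of the 9. It was 5.87 over 33 other microglial genes, 5.42 over 8 markers of border macrophages, 8.14 over neutrophil markers and 2.91 over 8 monocyte markers. Of the monocyte markers 6 were higher in P6H55, but their summed level was higher in P6H63 (2432 and 1872 CPM against 929 and 758 CPM), carried by Fn1, the fibronectin gene, with a ratio of 0.370. Astrocyte markers had a median ratio of 0.439, neuronal markers 0.413 and endothelial and mural markers 0.461.

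**Figure D1:**
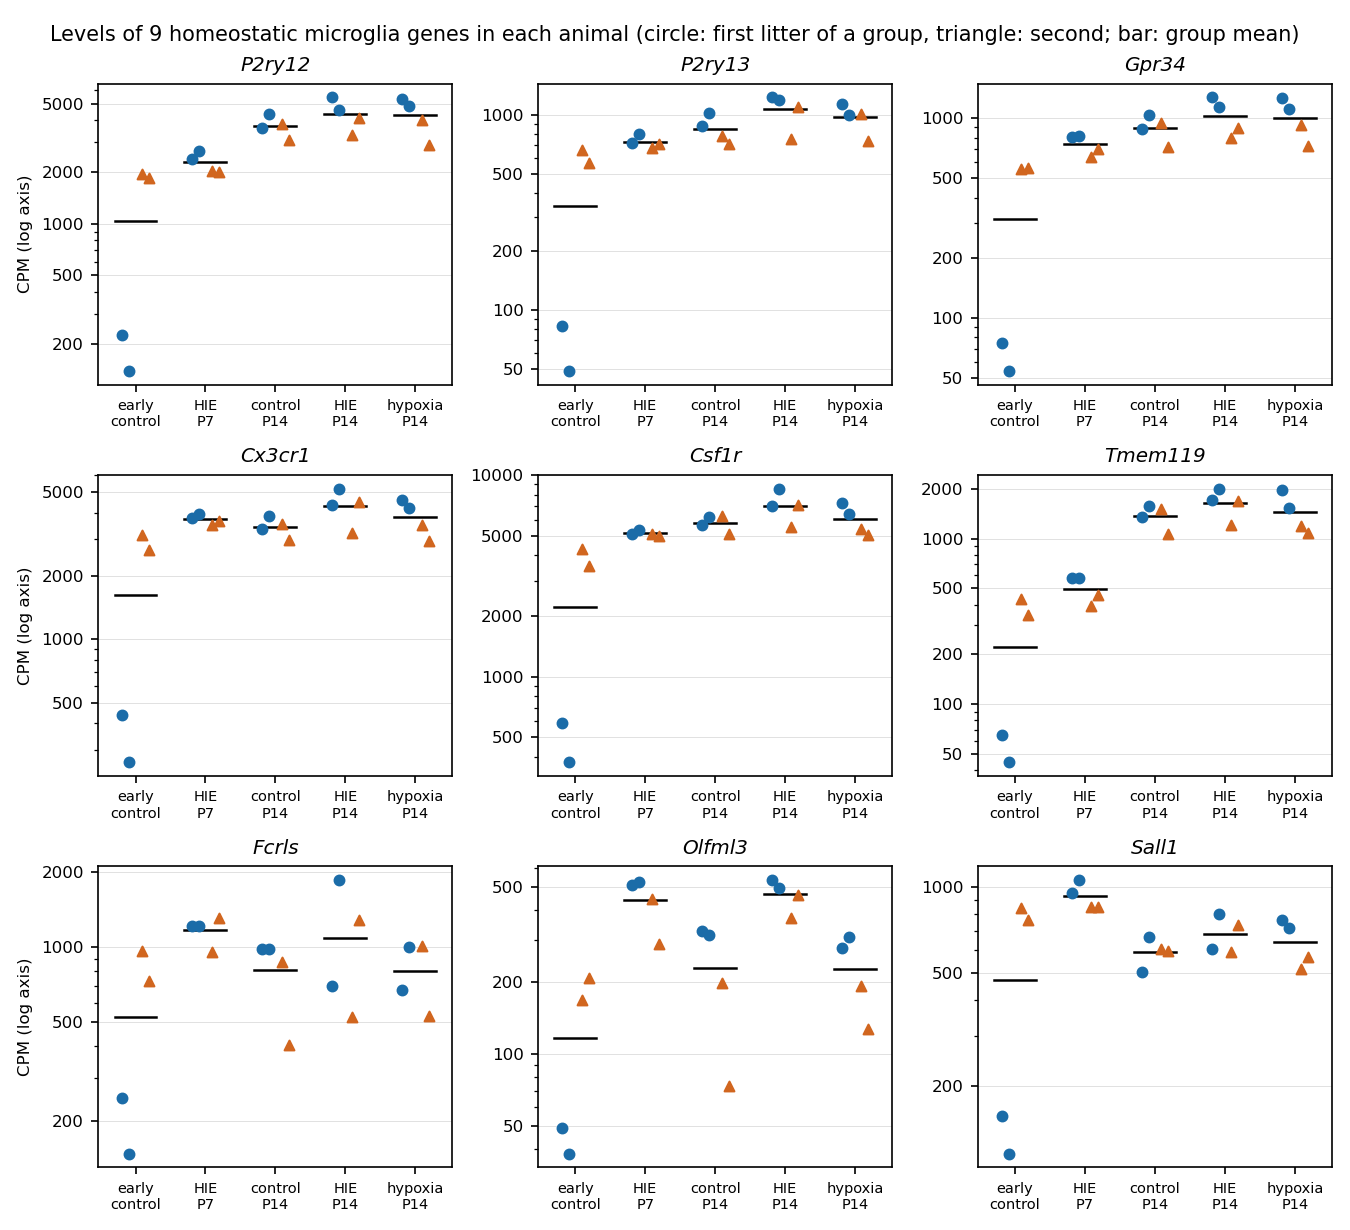
CPM (log axis) of each of the 9 genes in each animal, with 1 panel per gene and 1 column per group of 4 animals. The 2 P6H63 early controls sit below all other animals in every panel, for example P2ry12 at 226 and 139 CPM against 1845 CPM or more in the others, with the smallest gap for Olfml3 (49.1 CPM against 73.2 CPM in 1 P14 control).

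**Figure D2:**
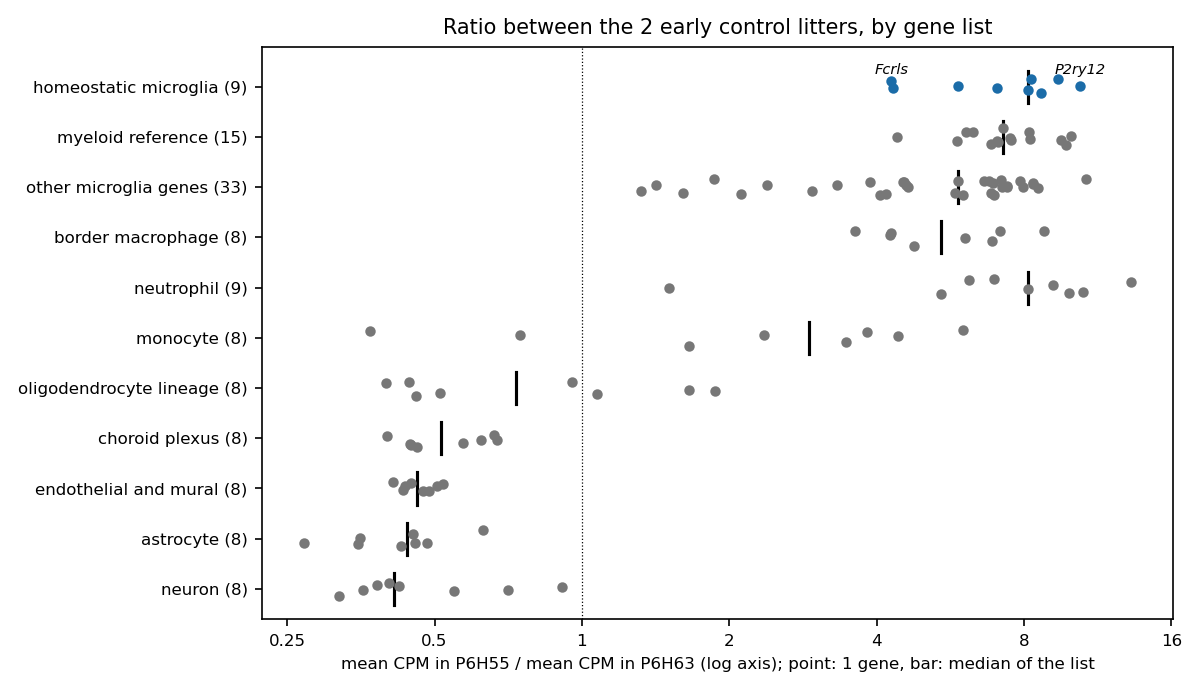
Ratio of the mean CPM of the P6H55 early controls to that of the P6H63 early controls (log axis), with 1 point per gene for the 9 homeostatic genes and for lists of other cell types. The 9 genes lie between 4.29 and 10.4, the pan-myeloid genes between 4.40 and 9.98, and astrocyte, neuronal and endothelial lists have medians below 1.

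HIE at P7 was compared with the early controls to ask how these genes stood soon after the insult. All 9 genes had a higher mean CPM in HIE, but the spread among controls was as wide as the gap between litters and no gene passed the test. Csf1r had 588, 376, 4316 and 3556 CPM in the controls and 5121, 5372, 5120 and 5003 CPM in HIE. The groups did not overlap for Csf1r, with the HIE animals close together and the controls split by litter. Log2 fold changes in the edgeR quasi-likelihood test ran from 0.96 (SE 0.62) for Sall1 to 1.92 (SE 0.56) for Olfml3, with adjusted p from 0.150 to 0.356. None of the 9 was called at an adjusted p under 0.05, where 0.0666% of all tested genes were, and 1 of the 9, Olfml3, had an unadjusted p under 0.05. DESeq2 called 1 gene, Olfml3, with an adjusted p of 0.0137, in a fit that called 13.4% of all genes. The HIE and control animals did not overlap for 7 of the 9 genes, against 16.0% of all genes. Leaving out 1 animal, the P6H55 control labelled P10, brought Olfml3 past the threshold in edgeR (adjusted p 0.0470).

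Without the P6H63 litter, the same comparison was small. Against the 2 P6H55 controls alone, the log2 fold changes of 8 genes lay between 0.20 and 0.46 and that of Olfml3 was 1.22 (SE 0.24), with an edgeR adjusted p of 0.162. None of the 9 was called, where 0.112% of all genes were. Against the 2 P6H63 controls alone, all 9 were called, with log2 fold changes of 2.60 to 3.67, in a fit that called 58.5% of all genes. Olfml3, the secreted glycoprotein, had 169 and 209 CPM in P6H55, 49.1 and 38.3 CPM in P6H63, and 510, 525, 448 and 290 CPM in HIE. Every HIE animal was above every control for Olfml3, including both P6H55 animals. Marker sums of other cell types are given beside this gene, and their part in the result was not tested. Among the 4 HIE animals and the 2 P6H55 controls the astrocyte sum overlapped (1358 to 1816 against 1443 to 2046 CPM), while the endothelial and mural sum was 969 to 1283 against 1329 and 1341 CPM, and that of choroid plexus markers 1132 to 2118 against 3738 to 4207 CPM.

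Relative to the pan-myeloid genes, the difference between HIE at P7 and early controls was smaller in size than in CPM for each of the 9 genes. On this scale the log2 fold changes ran from -0.29 to 0.46, none of the 9 was called and none had an unadjusted p under 0.05, in a fit where the median gene lay at -2.46 and edgeR called 81.9% of all genes. Cx3cr1, for example, had relative levels of 8.88, 8.60, 9.99 and 9.97 in the controls and 10.8, 10.4, 9.84 and 10.3 in HIE. The fractalkine receptor therefore varied little among the 8 animals on this scale, and its ranges overlapped. Only Csf1r did not overlap between the groups (12.0 to 13.8 in controls, 14.0 to 14.7 in HIE), 1 of 9 against 46.5% of all genes. Against P6H55 alone, where the median gene lay at -0.34, Olfml3 kept the largest value, 0.89 (SE 0.25, edgeR adjusted p 0.0570), the other 8 lay between -0.11 and 0.16, and none was called (0.0902% of all genes). Against P6H63 alone, 1 gene, Fcrls, was called and was lower in HIE, at -0.61 on the log2 scale (edgeR adjusted p 0.0186), where 96.2% of all genes were called.

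Fcrls, Olfml3 and Sall1 had higher relative levels in both P6H63 animals than in both P6H55 animals. The relative level of Fcrls was 5.03 and 4.88 in P6H63, 3.10 and 2.73 in P6H55 and 2.696 to 3.656 in HIE at P7. Both P6H63 animals were above all other early animals for Fcrls. The relative level of Sall1 was 3.21 and 3.83 in P6H63 against 2.704 and 2.854 in P6H55, and 2.38 to 2.78 in HIE. That of Olfml3 was 0.998 and 1.26 in P6H63 and 0.540 and 0.783 in P6H55, and 0.811 to 1.46 in HIE, a range that holds the P6H63 values and lies above those of P6H55. In CPM, border macrophage markers summed to 713 to 1012 in P6H63 and 3563 to 5330 in P6H55, lower in P6H63 as the 9 genes were. Their median ratio of P6H55 over P6H63 (5.42, range 3.62 to 8.78) was below that of the pan-myeloid genes (7.24). The ratio of Fcrls (4.29) was also below it. The part of these markers in the Fcrls difference was not tested.

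**Figure D3:**
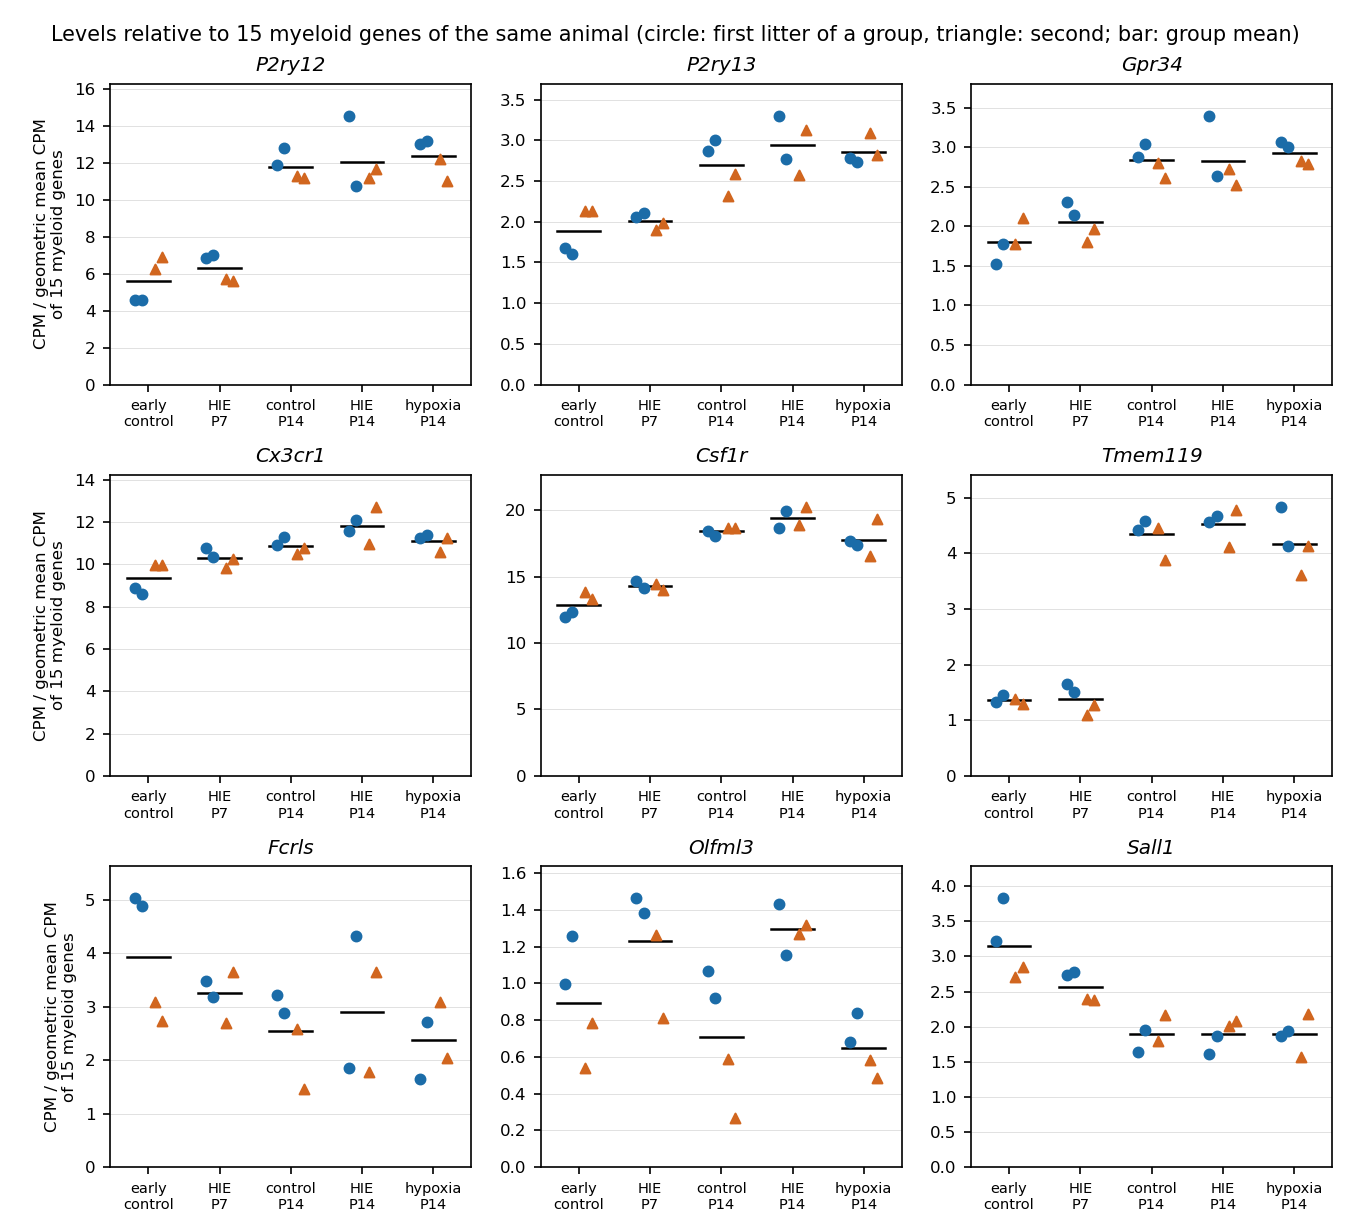
Relative level (CPM over the geometric mean of 15 pan-myeloid genes of the same animal, linear axis) of the 9 genes in each animal, with 1 panel per gene and 1 column per group. The P6H63 controls fall among the other early animals for Tmem119 (1.33 and 1.46) and above them for Fcrls (5.03 and 4.88), and the P14 groups lie above the early groups for Tmem119 and below them for Sall1.

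At P14, HIE was compared with controls to ask whether the genes differed later. None of the 9 was called (edgeR; 0.00478% of all tested genes were), 1 of them, Olfml3, had an unadjusted p under 0.05, and DESeq2, which called 2.34% of all genes, also called none of the 9. Olfml3 had 537, 498, 372 and 464 CPM in HIE and 327, 198, 315 and 73.2 CPM in controls. All 4 HIE animals were above all 4 controls, and the log2 fold change was 1.01 ± 0.37 (SE; edgeR adjusted p 0.393). With 1 animal left out at a time, this fold change ran from 0.71 to 1.24. The other 8 genes had log2 fold changes between 0.17 and 0.40, and P2ry12, the ADP receptor, had 5453, 4618, 3278 and 4101 CPM in HIE and 3630, 3793, 4365 and 3069 CPM in controls, with overlapping ranges. Olfml3 was the only one of the 9 without overlap in CPM, against 5.15% of all genes.

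The difference in Olfml3 at P14 was seen within both name prefixes, each of which held only 1 HIE litter and 1 control litter. Among animals named P4H, HIE had 537 and 498 CPM against 327 and 315 CPM in controls, and among those named P6H, 372 and 464 CPM against 198 and 73.2 CPM. With the prefix as a covariate, the log2 fold change was 1.13 (SE 0.31, edgeR adjusted p 0.193). The endothelial and mural marker sum was 1293 to 2059 CPM in HIE and 863 to 1160 CPM in controls, and the neuronal sum was 243 to 334 against 382 to 707 CPM. Both sums were separate between the groups, as Olfml3 was, and their part in its difference was not tested. On the relative scale, where the median gene lay at -0.16, Olfml3 was higher by 0.86 ± 0.34 (log2, SE; edgeR adjusted p 0.443), none of the 9 was called (0.00955% of all genes) and 1 had an unadjusted p under 0.05. Csf1r and Olfml3 did not overlap between the groups on that scale, 2 of 9 against 4.68% of all genes. For Csf1r the gap was narrow, with 18.09 to 18.66 in controls and 18.67 to 20.23 in HIE.

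Hypoxia at P14 was compared with the same controls, and its mean differed little for any of the 9 genes. Log2 fold changes ran from -0.04 (SE 0.43, Olfml3) to 0.17 (SE 0.16, P2ry13), none was called by edgeR (0.00955% of all genes) or by DESeq2 (0.783%), and none had an unadjusted p under 0.05. No member was without overlap, against 4.86% of all genes in CPM and 2.44% on the relative scale, and on the relative scale too none was called (0.00955%) or had an unadjusted p under 0.05. Gpr34 had 1256, 928, 727 and 1108 CPM in hypoxia and 882, 942, 1039 and 718 CPM in controls, and the wider spread was on the hypoxia side. All hypoxia animals were named P6H, while the controls held both P4H and P6H animals, so the name prefix was not matched. Olfml3 had 327 and 315 CPM in P4H controls, 198 and 73.2 CPM in P6H controls and 127 to 310 CPM in hypoxia. The part of the prefix in this comparison was not tested.

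Both P14 treatments were also compared with each other, and Olfml3 was the gene that differed most among the 9. Olfml3 had 279, 192, 127 and 310 CPM in hypoxia, all below the 372 to 537 CPM of HIE. The log2 difference, HIE minus hypoxia, was 1.03 (SE 0.25, edgeR adjusted p 0.999) in CPM and 1.00 (SE 0.17, edgeR adjusted p 0.448) on the relative scale, where Olfml3 ranked 5 among all genes by p, and DESeq2 gave an adjusted p of 0.0542. None of the 9 was called by either tool (edgeR called 0.00955% of all genes on both scales and DESeq2 0.0716%), and 1, Olfml3, had an unadjusted p under 0.05 on both scales. Olfml3 was the 1 gene without overlap, against 2.65% of all genes in CPM and 1.40% on the relative scale. The astrocyte sum was 2351 to 3387 CPM in HIE and 1533 to 1997 CPM in hypoxia, and its part in this difference was not tested, whereas the endothelial and mural sum overlapped. HIE is shared by this comparison and the one with controls, so both use the same 4 HIE animals. The name prefix was not matched here either, since HIE held both P4H and P6H animals and hypoxia only P6H animals. Olfml3 had 537 and 498 CPM in the P4H animals of HIE and 372 and 464 CPM in its P6H animals. The part of the prefix in this difference was not tested.

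From P7 to P14 within HIE, 6 of the 9 genes changed, in a comparison where age and batch cannot be told apart. In edgeR, 5 rose and 1 fell, where 46.0% of all tested genes were called, and DESeq2 also called 6 (49.8% of all genes). Tmem119 had 578, 575, 390 and 454 CPM at P7 and 1712, 2010, 1205 and 1686 CPM at P14. Each P14 animal was above each P7 animal, and the log2 fold change was 1.74 (SE 0.18, edgeR adjusted p 5e-05). P2ry12 rose from 2007 to 2660 CPM at P7 to 3278 to 5453 CPM at P14 (log2 fold change 0.95, SE 0.18, edgeR adjusted p 0.00163). P2ry13 (0.57), Gpr34 (0.48) and Csf1r (0.47) rose by less. Sall1, the identity factor, fell by 0.43 on the log2 scale (edgeR adjusted p 0.0198), from 951, 1056, 848 and 852 CPM to 607, 803, 589 and 733 CPM. Every P7 animal was above every P14 animal for Sall1. Cx3cr1 (0.23), Olfml3 (0.09) and Fcrls (-0.09) did not pass the test. Gpr34, Csf1r and Sall1 lost the call when 1 of several single animals was left out, in 4, 6 and 2 of 8 fits, with edgeR adjusted p up to 0.0922.

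The same 6 genes were called relative to the pan-myeloid genes, where 39.2% of all genes were. Tmem119 rose by 1.71, P2ry12 by 0.93, P2ry13 by 0.55, Gpr34 by 0.46 and Csf1r by 0.44 on the log2 scale, and Sall1 fell by 0.44. On this scale leaving out any 1 animal left 6 called. The 4 animals of each age did not overlap for 4 of the 9 genes in CPM, against 42.4% of all genes, and for 7 on the relative scale, against 36.6%. All HIE animals at P7 were male, and 2 of the 4 at P14 were, so sex was not matched in this comparison. Marker sums of other cell types were also separate between the ages, with 247 to 387 CPM at P7 and 740 to 2340 CPM at P14 for the oligodendrocyte lineage, 1358 to 1816 and 2351 to 3387 CPM for astrocytes, and 969 to 1283 and 1293 to 2059 CPM for endothelial and mural cells. Their part in these changes was not tested.

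Among controls, the comparison of P14 with the early animals depended on the P6H63 litter. With all 4 early controls, 1 gene, Tmem119, was called at 2.68 ± 0.71 (log2 fold change and SE; edgeR adjusted p 0.0220), where 33.0% of all genes were called, and DESeq2 called 2 (42.8%). P2ry12 came next with 1.88 (edgeR adjusted p 0.102), and Sall1 had the smallest value, 0.38. Tmem119 missed the threshold without 1 P14 control, the female P6H8 animal (edgeR adjusted p 0.0517). Against the 2 P6H55 animals alone, 4 genes rose, Tmem119 by 1.87, P2ry12 by 1.01, Gpr34 by 0.72 and Csf1r by 0.61 (31.2% of all genes were called), and against the 2 P6H63 animals all 9 were called (59.0%). P14 and early controls did not overlap for 5 of 9 genes in CPM, against 36.2% of all genes.

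Relative to the pan-myeloid genes, Tmem119 was again the 1 gene called between all controls, at 1.67 ± 0.66 (log2 fold change and SE; edgeR adjusted p 0.0353), while 60.3% of all genes were called and the median gene lay at -2.28. Tmem119 stood at 1.33, 1.46, 1.38 and 1.29 in the early controls and at 4.42, 4.46, 4.59 and 3.89 at P14. The 4 early animals were close together despite the gap between their litters in CPM, and all P14 controls were above them. Leaving out any 1 of 5 of the 8 animals put the edgeR adjusted p of Tmem119 above the threshold (up to 0.116), with log2 fold changes between 1.64 and 1.72 over all 8 fits. Against P6H55 alone, where the median gene lay at -0.13, 5 genes were called (27.4% of all genes): Tmem119 (1.70), P2ry12 (0.84), Gpr34 (0.54) and Csf1r (0.44) rose and Sall1 fell by 0.56. Against P6H63 alone 7 were called (89.4%), with P2ry12, P2ry13, Gpr34 and Tmem119 higher and Fcrls, Olfml3 and Sall1 lower at P14. The P14 and early controls did not overlap for 7 of 9 genes on the relative scale, against 31.3% of all genes. Sall1 had relative levels of 3.21, 3.83, 2.704 and 2.854 in early controls and 1.65, 1.80, 1.95 and 2.17 at P14, and was lower in all 4 older animals.

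**Figure D4:**
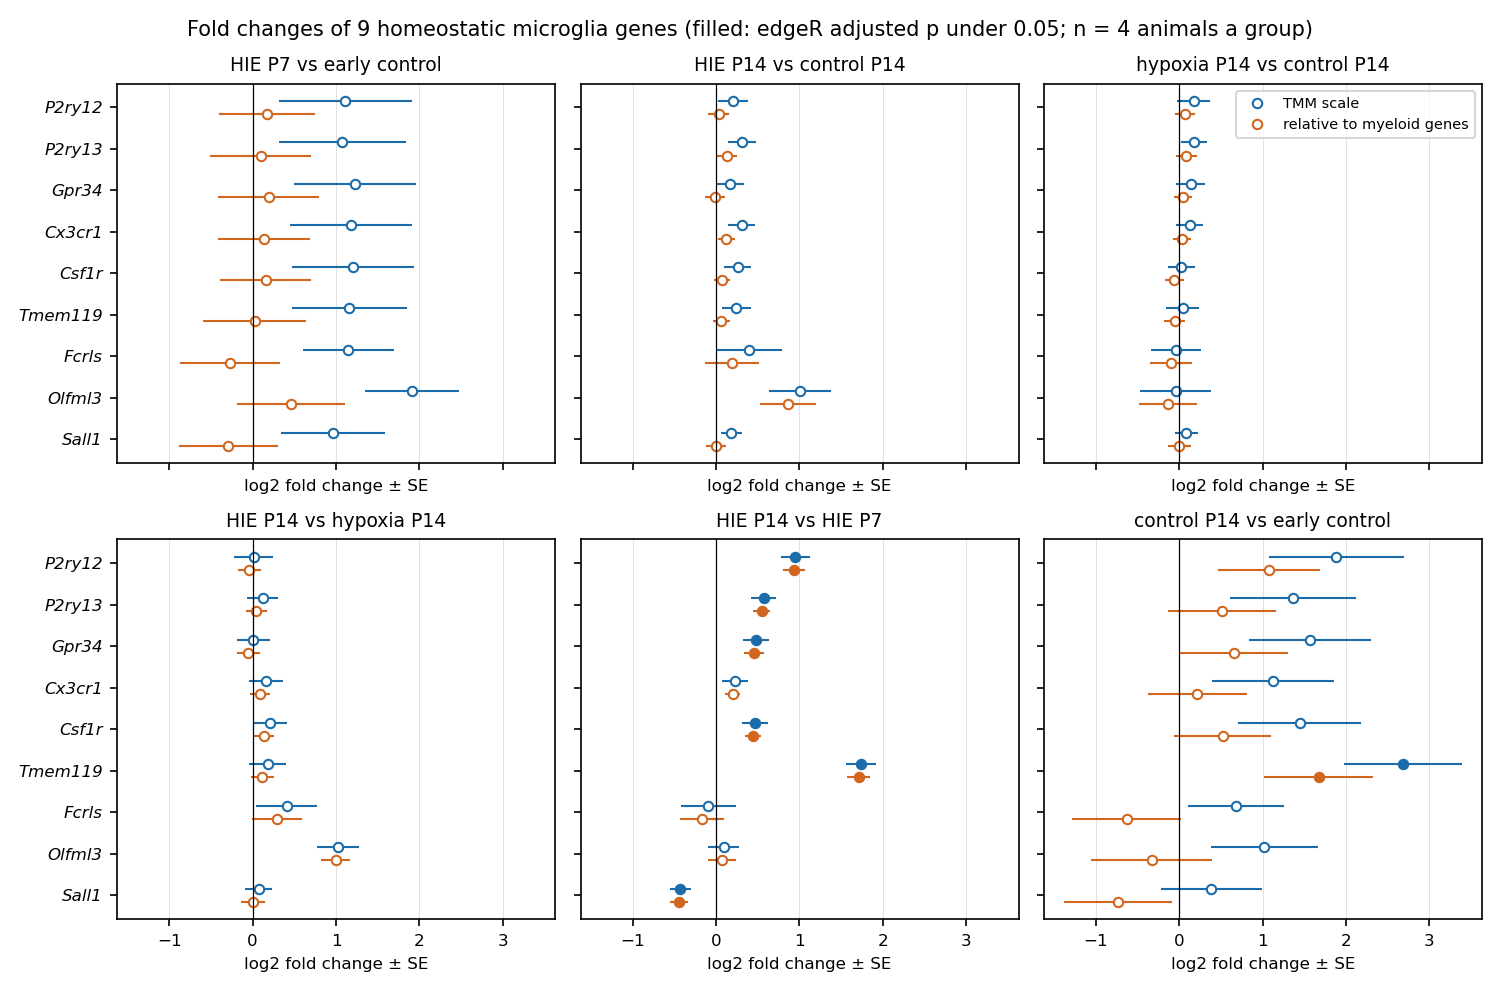
Log2 fold changes with standard errors of the 9 genes in the comparisons, on the CPM scale and relative to 15 pan-myeloid genes, with filled circles for an edgeR adjusted p under 0.05. The fold changes at P7 in CPM (0.96 to 1.92) have wide bars (SE 0.55 to 0.80) and come with controls split by litter. Olfml3 stands apart from the other 8 genes in HIE at P14 against control (1.01) and against hypoxia (1.03).

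The difference between the HIE effect at P7 and that at P14 was tested as an interaction. The effect at P7 minus that at P14 was between 0.74 (SE 0.72, Fcrls) and 1.05 (SE 0.77, Gpr34) on the log2 scale for the 9 genes, with edgeR adjusted p from 0.547 to 0.687. None of the 9 was called by edgeR, which called 0.00405% of all genes, or by DESeq2, which called 2.73%, and none had an unadjusted p under 0.05. Without the P6H63 litter the median of the 9 was 0.06, and relative to the pan-myeloid genes it was -0.03.

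Other genes of the microglial signature were followed as a list of 33, which holds genes such as Siglech and the complement C1q subunits. From P7 to P14 within HIE, 22 rose and 2 fell (edgeR), in the fit that called 46.0% of all genes. Slc2a5, the fructose transporter, rose by 2.85, but its ranges overlapped (7.26 to 17.7 CPM at P7 and 13.2 to 195 CPM at P14). Selplg, the selectin ligand PSGL-1, rose by 2.10 and Tgfbr1, a TGF-beta receptor subunit, by 1.35 on the log2 scale, while P2ry6, the UDP receptor, fell by 0.57 and Ltc4s, leukotriene C4 synthase, fell by 0.31. Between controls of both ages 9 rose and none fell, where 33.0% of all genes were called, led by Selplg (3.10), Cst3 (2.37) and Tgfbr1 (2.14). Against P6H55 alone 17 rose and none fell, where 31.2% of all genes were called. In the comparison of HIE with early controls at P7, and in the 3 comparisons within P14, none of the 33 was called by edgeR in CPM. Relative to the pan-myeloid genes, 4 of the 33 were called lower in HIE at P7, Slc2a5 (-2.48), Sparc (-2.04), Smad3 (-1.82) and Ecscr (-1.74), a smaller share than the 81.9% of all genes called in that fit, whose median gene lay at -2.46. Against P6H55 alone 1 of the 33 was called lower, with 0.0902% of all genes called.

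The ligands of the receptors were measured in the same libraries. Csf1, a ligand of CSF1R, had a mean of 232 CPM in early controls (154 in P6H63 and 310.5 in P6H55), 489 in HIE at P7 and 84.2 to 91.9 CPM in the P14 groups, and from P7 to P14 within HIE fell by 2.40 on the log2 scale (edgeR, called at an adjusted p under 0.05). Il34, the other CSF1R ligand, had means between 3.94 and 10.1 CPM. Cx3cl1, which encodes fractalkine, had means between 12.5 and 25.6 CPM, far below the 1620 to 4305 CPM of its receptor Cx3cr1. Tgfb1, a cytokine that keeps microglia homeostatic, had a mean of 199.7 CPM in early controls (82.3 in P6H63 and 317 in P6H55), 374 in HIE at P7 and 135 to 146 CPM at P14. Within HIE from P7 to P14, Tgfb1 fell by 1.34 and Gnai2, the G protein subunit to which P2RY12 couples, fell by 0.66 on the log2 scale, while Nt5e, the ectonucleotidase CD73, rose by 0.75. These 3 genes, with Csf1, Il34 (0.93) and Cx3cl1 (0.56), were all called in that comparison, which called 46.0% of all genes.

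Correlations of the 9 genes across animals are given as a description. Over the 20 animals the Pearson correlations of log2 CPM between pairs lay between 0.65 and 0.99, but these points share the low P6H63 litter. Over the 18 other animals, the median correlation of a gene with the others was 0.66 to 0.86 for the receptors and Tmem119. It was 0.42 for Olfml3, 0.295 for Fcrls and -0.17 for Sall1. Among the pairs, P2ry12 and Tmem119 had 0.96 and P2ry12 and Gpr34 0.95. Tmem119 and Sall1 had -0.54, whereas over the P14 animals alone this pair had 0.78. Over the 12 animals at P14, which share a file, the pairs lay between 0.41 and 0.98. Outside the 9, genes whose log2 CPM was most like the mean of the 9 over 20 animals included Cd53 (0.995), Rps6ka1 (0.994), Adora3, Asb2, Siglech, Klhl6, Plcg2, Ctsf and Entpd1. The nearest single genes over these 20 animals were Itgam and Rgs10 for P2ry12, Selplg and Tgfbr1 for Tmem119, Crybb1 and Tln1 for Fcrls, Ppt1 and Capza1 for Olfml3, and Fmnl1 and Tpbgl for Sall1. Of the genes named, Cd53 and Itgam belong to the 15 pan-myeloid genes. Siglech, Entpd1, Rgs10, Selplg, Tgfbr1 and Crybb1 belong to the list of 33. Without P6H63 the gene most like the mean was Ctsf (0.951), and those nearest to Fcrls were Cd5l and Zc3hc1.

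Fcrls varied widely within each P14 group, and Olfml3 within P14 controls and hypoxia. Fcrls had 697, 1863, 523 and 1284 CPM in HIE at P14, 984, 873, 984 and 404 CPM in controls and 677, 1012, 532 and 1001 CPM in hypoxia. The spread within HIE, a coefficient of variation of 55.8%, was larger than any difference between the group means, and the groups overlapped. Olfml3 had a coefficient of variation of 52.0% in P14 controls and 15.0% in HIE. Csf1r, by contrast, varied by 9.16% in P14 controls in CPM and by 1.47% relative to the pan-myeloid genes.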

How the data were processed

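Reads of 22 libraries from 20 animals had been mapped by the authors to GRCm39 with STAR, and the deposited values are expected counts per gene from RSEM, not scaled for depth. Annotation release is not given in the sources used here. Of 56691 genes, 56017 were matched to GENCODE mouse release M39. Expected counts were rounded and the repeat libraries of 2 animals summed. Members and lists were chosen with earlier results of these data known. Each pair of groups was fitted alone in edgeR 4.0.16 (R 4.3.3) with filterByExpr, TMM scaling and the quasi-likelihood test, p-values Benjamini-Hochberg adjusted over all genes tested, threshold 0.05. The relative scale used the geometric mean of 15 pan-myeloid genes as offset. The code was tested on simulated data. DESeq2 1.42.0, library size scaling, males only, single litters, the name prefix, single libraries and leaving out each animal were alternatives. Named genes were the 9 members, of the 33 other microglial genes up to 3 extremes each way among those called, each ligand, and the most correlated genes, of which 1 is not reported here. Nothing says littermates were handled separately, so p-values measure only the spread between these animals, and littermates are not independent. All member values exceeded the level of 3 counts.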

Additional observations from a re-analysis of the deposited data

How the results depend on the processing

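No paired analysis was possible because the labels give no replicate numbers shared between groups; numbers were given in accession order. Of the counts of members called, 46 stayed within 1.5 times under the other settings and 8 moved. HIE at P7 against early controls, in CPM, went from 0 called to 1 with DESeq2 and 9 against P6H63 alone, and relative to the pan-myeloid genes to 1 against P6H63. Control P14 against early controls went from 1 called to 2 with DESeq2, 4 against P6H55 and 9 against P6H63 in CPM, and to 5 and 7 against these litters on the relative scale. Leaving out 1 animal gave 0 to 1 for HIE at P7, 0 to 1 for control P14 against early controls on both scales, 4 to 5 for HIE P14 against P7 in CPM, 6 to 6 on the relative scale, and 0 to 0 elsewhere.

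Of member values, 56 lay within 1 SE of 0 and were given no direction, and 61 lay beyond. For the latter, 10 alternative fits gave the opposite sign, with some genes counted under more than 1 setting. Fcrls in control P14 against early was -0.017 against P6H55. The interaction was -0.040 for Tmem119, -0.47 for Fcrls, -0.40 for Olfml3 and -0.30 for Sall1 on the pan-myeloid scale. On that scale with P6H55 alone, an alternative chosen after seeing the data, it was -0.092 for P2ry12, -0.076 for Cx3cr1, -0.0073 for Tmem119, -0.034 for Fcrls and -0.12 for Sall1. The cause was not tested. Early controls rest on 2 litters, and with 4 animals a group small changes cannot be resolved.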
